A study of Mus musculus with 9 samples.

Results

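The genes of mitochondrial complex I were examined in primary B cells of the mouse spleen. They were taken as every row of the deposited table whose gene symbol begins with Nduf, a rule that uses no measured value, and 47 of the 17596 genes in the table met it. The 9 libraries came from Mb1Cre mice, which served as the control, and from Mct1f/fMb1Cre mice, aged 6 to 8 weeks. Both genotypes carry the Mb1-Cre allele, which drives Cre recombinase in the B cell lineage, and in Mct1f/fMb1Cre mice loxP sites flank a segment of *Mct1* from the first exon into the third intron. *Mct1*, listed under its symbol *Slc16a1*, encodes a carrier of lactate and pyruvate across membranes. Cells were naive (day 0) or had been cultured for 3 days with LPS at 10 μg/ml and IL-4 at 50 ng/ml (day 3). There were 2 Mb1Cre libraries and 2 libraries labelled Mct1f/fMb1Cre on day 0, and 2 Mb1Cre and 3 Mct1f/fMb1Cre libraries on day 3. The labels name no mouse for any library, and the p values measure the spread between these libraries, which may in part be technical.

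Complex I, NADH:ubiquinone oxidoreductase, is the entry point of the respiratory chain. It takes electrons from NADH, passes them along a chain of iron-sulfur clusters to ubiquinone and pumps protons across the inner mitochondrial membrane. The enzyme has the shape of an L. The N module at the tip of the peripheral arm oxidizes NADH, the Q module below it reduces ubiquinone, and the membrane arm pumps protons. A small core shared with bacteria carries out the reaction, and a larger set of accessory subunits surrounds and stabilizes it. Assembly factors build the modules and are absent from the finished enzyme. Naive B cells are small resting cells, and LPS with IL-4 makes them grow, divide and switch the class of their antibody, which raises their demand for respiration and for NAD+.

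Of the 47 genes, 36 encode subunits, 7 of the core and 29 accessory. Another 8 are assembly factors that carry the Nduf symbol. The remaining 3 are *Ndufa4*, now placed with complex IV, its paralog *Ndufa4l2*, and *Ndufb4c*, a copy of the subunit gene *Ndufb4* that GENCODE annotates as a processed pseudogene and RefSeq as protein-coding. The core subunits of the membrane arm are encoded by mitochondrial DNA, and these as well as the accessory subunit *Ndufb1* were not analysed here. With a mean of at least 1 FPKM (fragments per kilobase of transcript, scaled to the mapped fragments of each library) over the 9 libraries, 46 of the 47 genes were tested. The exception was *Ndufa4l2*, which is known to be induced in hypoxia. It had 0.120 and 0 FPKM in the Mb1Cre libraries of day 0, 0.0600 and 0 in those labelled Mct1f/fMb1Cre, 0.170 and 0 in the Mb1Cre libraries of day 3 and 0.110, 0.0600 and 0.330 in the Mct1f/fMb1Cre libraries of day 3.

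The targeted gene was examined first. *Slc16a1* had 22.8 ± 0.262 FPKM (SD, n = 2) in Mb1Cre and 10.0 ± 0.690 FPKM (SD, n = 3) in the B cells deficient in *Mct1* on day 3 (adjusted p = 9.07e-06, limma). On day 0 it had 4.07 ± 0.375 FPKM (SD, n = 2) in Mb1Cre libraries and 3.88 ± 0.247 FPKM (SD, n = 2) in the libraries labelled Mct1f/fMb1Cre (adjusted p = 0.844, limma), so only the labels give the genotype of the naive libraries. The B cell markers were present throughout but also moved with the day. The summed level of 9 B cell markers ran from 14512 to 16037 FPKM on day 0 and from 9192 to 9724 FPKM on day 3, with 7 of the 9 called lower in each genotype. The sum of the 5 plasma cell markers ran from 185 to 282 FPKM and from 379 to 473 FPKM, but the markers did not move together. In Mb1Cre cells 4 were called higher and 1 lower, and in Mct1f/fMb1Cre cells 2 higher and 2 lower. *Sdc1* ran from 5.75 to 8.29 FPKM on day 0 and from 2.29 to 3.21 FPKM on day 3. The summed level of 8 myeloid markers ran from 1020 to 1829 FPKM on day 0 and from 15.5 to 26.2 FPKM on day 3, and none of the 8 was at 0 in every library of a day. The 6 erythroid markers ran from 96.6 to 174 FPKM and from 4.34 to 7.95 FPKM, with 2 of the 6 at 0 in every library of day 3. The 8 T and NK cell markers ran from 58.8 to 71.0 FPKM and from 6.54 to 8.41 FPKM. The first library labelled Mct1f/fMb1Cre on day 0 had the highest myeloid sum and was the only 1 of the 4 day 0 libraries with the Y-linked transcript *Ddx3y* above 1 FPKM, while all 5 day 3 libraries had it. Between the libraries labelled Mct1f/fMb1Cre, *Ddx3y* thus split day 0, at 31.1 and 0.20 FPKM. Day and *Ddx3y* cannot be told apart in Mb1Cre cells, nor can day and the changes of the marker sums in each genotype. In bulk RNA, fewer cells of a type and less RNA per cell cannot be told apart either.

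Complex I transcripts were abundant in naive B cells and more so in activated ones. The 47 genes together made up 0.423 and 0.417% of the summed FPKM in the Mb1Cre libraries of day 0, and 0.406 and 0.419% in those labelled Mct1f/fMb1Cre. On day 3 the shares were 0.574 and 0.547% in Mb1Cre and 0.540, 0.563 and 0.550% in *Mct1*-deficient cells. All 5 libraries of day 3 lay above all 4 of day 0, and on either day the ranges of the genotypes overlapped. The median level of the 46 tested genes rose with it, from 36.9 ± 0.445 FPKM (SD, n = 2) to 70.6 ± 3.22 FPKM (SD, n = 2) in Mb1Cre and from 37.0 ± 0.371 FPKM (SD, n = 2) to 65.9 ± 0.717 FPKM (SD, n = 3) in Mct1f/fMb1Cre. Unlike the shares, this median did not overlap between the genotypes on day 3, at 72.9 and 68.3 FPKM against 65.4, 66.8 and 65.7 FPKM. The median of the group means over the 36 subunits alone went the other way on day 3, at 76.5 FPKM in Mb1Cre and 80.9 FPKM in Mct1f/fMb1Cre.

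**Figure D1:**
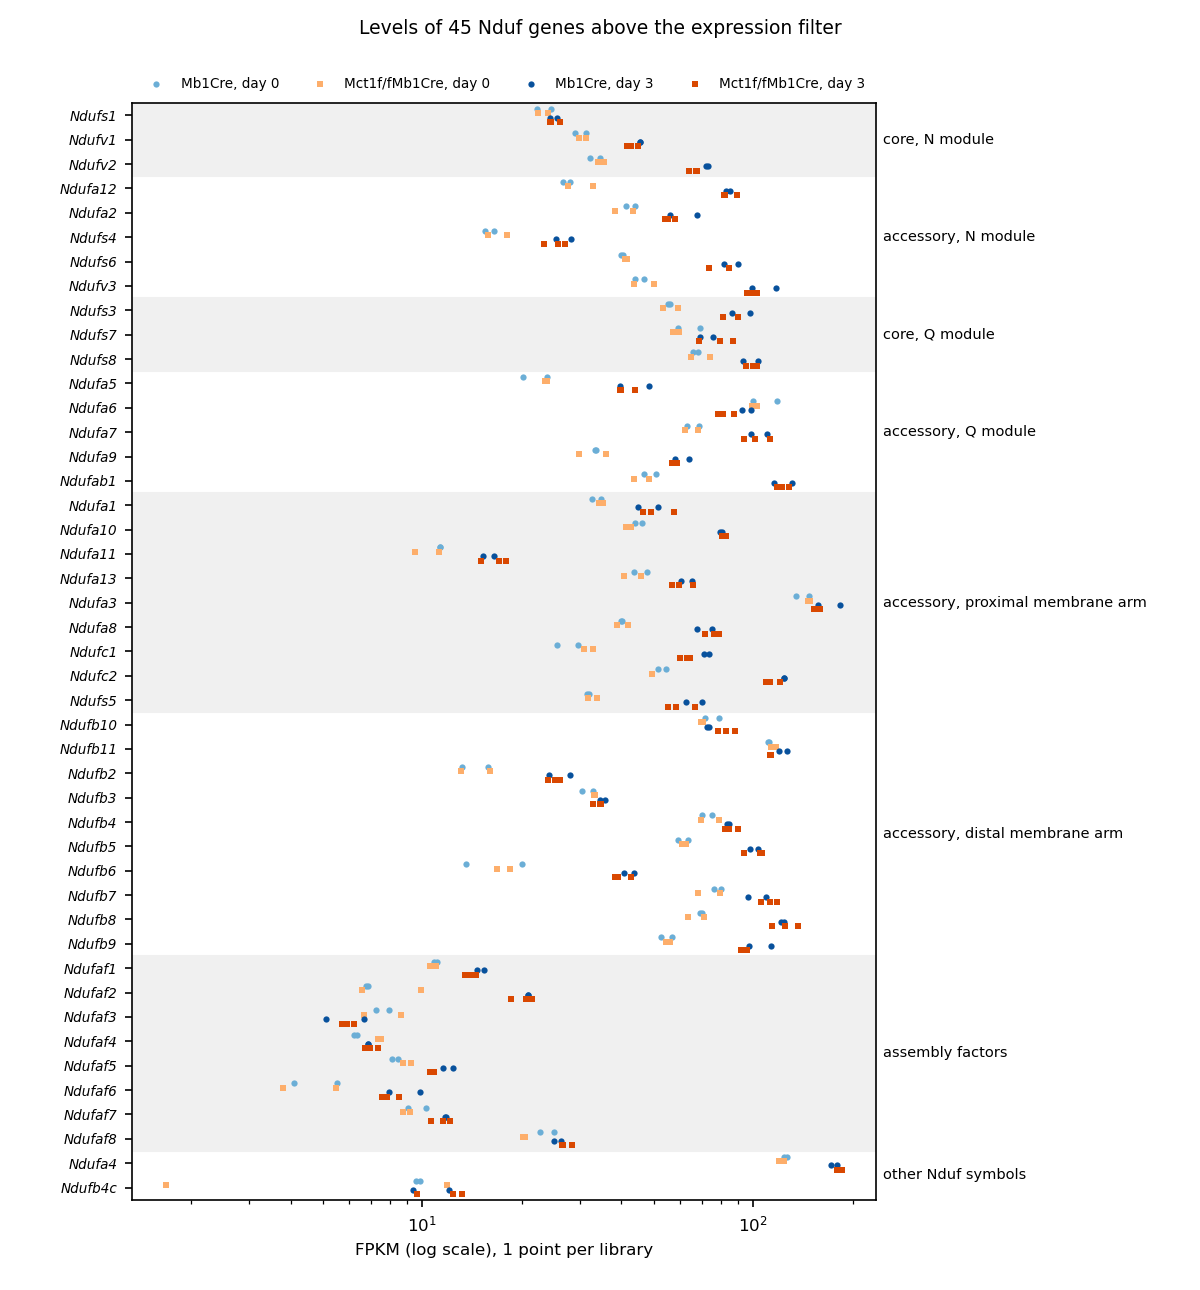
FPKM of 45 of the tested Nduf genes (log scale), with 1 point per library, circles for Mb1Cre and squares for Mct1f/fMb1Cre, pale for day 0 and dark for day 3, grouped by place in the enzyme. The subunits lie mostly between 10 and 180 FPKM, most assembly factors lie lower, overlapping the lowest subunits, and in most genes every dark point lies to the right of every pale one.

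Although the subunits meet in fixed proportions in the enzyme, their transcripts did not stand at 1 level. FPKM is per transcript length, which allows levels to be set side by side between genes, although across 45 tested genes without *Ndufb4c* the level in naive Mb1Cre cells had a Spearman rho of -0.33 with transcript length. Among the 36 subunits in naive Mb1Cre cells the level ran from 11.3 FPKM for *Ndufa11* to 141 FPKM for *Ndufa3*, both small proteins of the membrane arm, a range of 12.5-fold with a median of 45.2 FPKM. On day 3 the same genes were at either end, at 15.9 and 170.1 FPKM. Assembly factors, which act as catalysts of assembly, were lower, with a median of 7.94 FPKM in naive and 11.9 FPKM in activated Mb1Cre cells. The highest of them was *Ndufaf8*, at 23.9 and 25.6 FPKM. The lowest of the tested genes in Mb1Cre cells was *Ndufaf6* on day 0, at 4.8 FPKM, and *Ndufaf3* on day 3, at 5.89 FPKM. The highest was *Ndufa3* on day 0 and *Ndufa4* on day 3. The order of the genes was largely kept between the days, with a Spearman rho of 0.896 across the 46 genes in Mb1Cre cells and 0.915 in Mct1f/fMb1Cre cells. These are correlations across genes of the same libraries, given as a description. Replicates differed little, with a median coefficient of variation over the 46 genes between 4.29 and 5.36% in the 4 groups.

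On day 3, 26 of the Nduf genes were higher in Mb1Cre cells and 28 in Mct1f/fMb1Cre cells, *Ndufa4* and *Ndufb4c* being among the 28, and no member fell past the limit. A gene was called at an adjusted p below 0.05 and a change of more than 0.5 either way, on the log2(FPKM + 1) scale, which understates the change of low genes. In Mb1Cre cells 26 of the 46 genes were called higher on day 3, where 24.8% of the 10823 genes tested were called higher, and 0 were called lower, where 33% of all genes were. In Mct1f/fMb1Cre cells 28 of 46 were called higher (23.4% of all genes) and 0 lower (33.2% of all genes). With the adjusted p alone, 38 members were higher (37% of all genes) and 2 lower (47.5% of all genes) in Mb1Cre cells. The counts were 39 higher (36.4% of all genes) and 2 lower (49.1% of all genes) in Mct1f/fMb1Cre cells. The median log2 fold change of the members was 0.57 in Mb1Cre and 0.61 in Mct1f/fMb1Cre cells, beside -0.12 and -0.14 over all genes. In 36 members every library of day 3 lay above every library of day 0 (35.1% of all genes), and in 2, *Ndufaf3* and *Ndufa6*, every library lay below (46.6% of all genes). The genotypes called 24 members in common, *Ndufa2* and *Ndufv1* in Mb1Cre alone, and *Ndufa4*, *Ndufa11*, *Ndufb7* and *Ndufb4c* in Mct1f/fMb1Cre alone. None of these 6 passed the test of the difference described below. The sums of myeloid, erythroid and T cell markers given above fell over the same days, and their part in these results was not tested. How the values are scaled moved the number called higher. It was 21 and 19 when every library was set to the same total FPKM (19.1 and 18.5% of all genes). With median-of-ratios scaling it was 33 and 36 (31.8 and 30.9% of all genes). The median of the members stayed above that of all genes with either scaling.

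**Figure D2:**
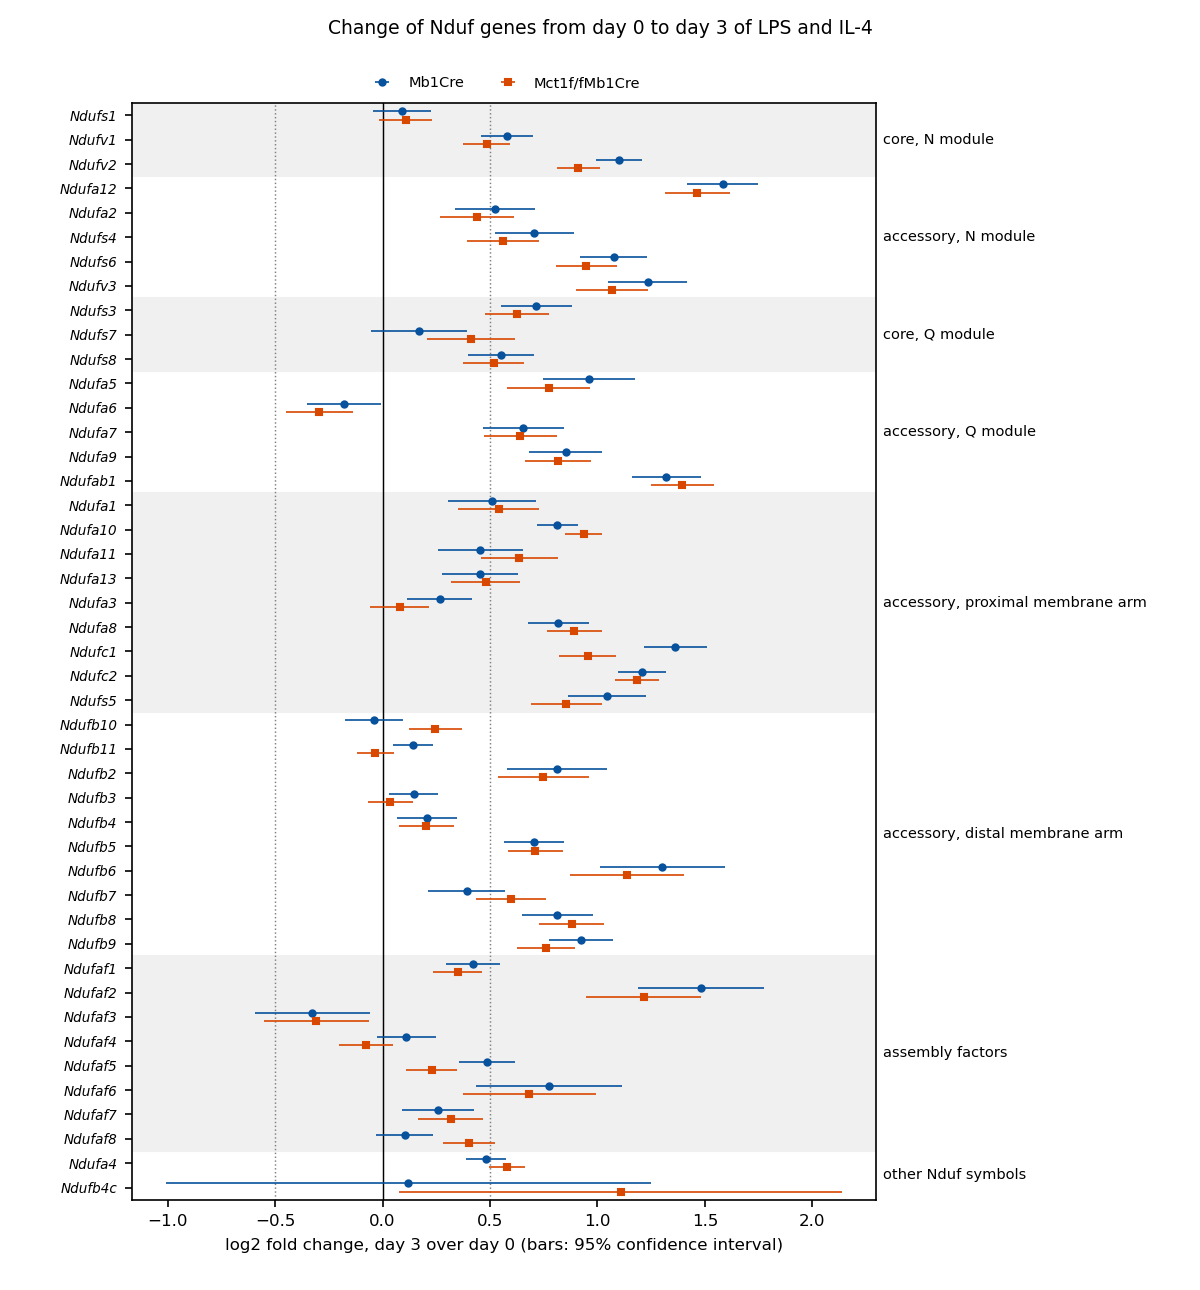
Change of 45 of the tested Nduf genes from day 0 to day 3, as the log2 fold change with its 95% confidence interval, in Mb1Cre (blue circles) and Mct1f/fMb1Cre cells (orange squares), with dotted lines at the limit of 0.5. Most genes lie to the right of 0 in both genotypes, *Ndufa12* farthest, and *Ndufaf3* and *Ndufa6* lie to the left in both.

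In what follows, where the values of both groups of a day are given together, those of Mb1Cre come first. The 7 nuclear core subunits were all higher on average on day 3, by unequal amounts. In the N module, *Ndufv1* holds the flavin that accepts electrons from NADH, and *Ndufv2* sits beside it with an iron-sulfur cluster. *Ndufv2* had 34.4 and 32.2 FPKM in the Mb1Cre libraries and 33.9 and 35.5 in those labelled Mct1f/fMb1Cre on day 0, and 72.2 and 72.9 against 63.9, 67.6 and 67.0 on day 3. The days did not overlap, and the log2 change came to 1.10 (standard error 0.0493, adjusted p = 2.56e-09, limma) in Mb1Cre and 0.91 (standard error 0.0450, adjusted p = 5.22e-09, limma) in Mct1f/fMb1Cre cells. *Ndufv1* rose by 0.58 in Mb1Cre cells, and its value of 0.48 in Mct1f/fMb1Cre cells passed the adjusted p but not the limit on the fold. *Ndufs1*, the largest subunit, which carries most of the iron-sulfur chain of this module, stood apart. Its values were 24.4 and 22.3 and then 22.4 and 23.9 FPKM on day 0, and 25.5 and 24.3 and then 26.1, 24.4 and 24.6 FPKM on day 3. The days overlapped, the highest naive library being at 24.41 and the lowest activated one at 24.34 FPKM, and its log2 fold changes of 0.09 and 0.11 did not pass the test (adjusted p = 0.182 and 0.0889, limma). In Mb1Cre cells the 3 core transcripts of the N module thus stood at 23.4, 30.1 and 33.3 FPKM on day 0 and at 24.9, 45.5 and 72.5 FPKM on day 3 for *Ndufs1*, *Ndufv1* and *Ndufv2*.

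In the core of the Q module, *Ndufs7* lines the pocket in which ubiquinone is reduced and holds the last iron-sulfur cluster, *Ndufs8* carries iron-sulfur clusters towards it and *Ndufs3* is a scaffold of the module. *Ndufs3* had 56.1 and 55.1 FPKM, then 53.3 and 59.1 FPKM, in the 2 groups of day 0, and 98.1 and 86.3 FPKM, then 81.2, 90.2 and 90.2 FPKM, in those of day 3. It was called higher in both genotypes (log2 fold change 0.72 in Mb1Cre and 0.62 in Mct1f/fMb1Cre cells), as was *Ndufs8* (0.55 and 0.52). *Ndufs7* had a log2 fold change of 0.17 in Mb1Cre (adjusted p = 0.136, limma) and 0.41 in Mct1f/fMb1Cre cells (adjusted p = 0.00148, limma). Its Mb1Cre libraries, at 59.2 and 69.3 FPKM before and 75.6 and 69.0 FPKM after culture, overlapped between the days.

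The accessory subunits of the N module had the largest median change of the subunit groups. All 5 were called higher in Mb1Cre and 4 of 5 in Mct1f/fMb1Cre cells, with a median log2 fold change of 1.08 and 0.95. The gene with the largest change of all members was *Ndufa12* (chromosome 10, 94199035 to 94221440, GRCm38.p6), whose protein takes the place of the assembly factor *Ndufaf2* late in the building of the N module. It had 27.98 and 26.6 FPKM in Mb1Cre libraries and 27.5 and 32.7 FPKM in those labelled Mct1f/fMb1Cre on day 0, against 82.5 and 85.1 FPKM and 81.9, 89.6 and 82.2 FPKM after activation. Every activated library had more than 2 times the level of any naive one. The log2 change came to 1.58 (standard error 0.0750, adjusted p = 4.01e-09, limma) in Mb1Cre and 1.46 (standard error 0.0684, adjusted p = 3.35e-09, limma) in Mct1f/fMb1Cre cells. *Ndufv3* (1.23 and 1.07) and the zinc-binding *Ndufs6* (1.08 and 0.95) followed. *Ndufs4*, which stabilizes the module, rose by 0.71 and 0.56. *Ndufa2* was at 0.52 in Mb1Cre and at 0.44 in Mct1f/fMb1Cre cells, on either side of the limit.

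Around the Q module, 4 of 5 accessory subunits were called higher in each genotype, and the exception, *Ndufa6*, moved the other way. *Ndufab1*, the mitochondrial acyl carrier protein, which is a subunit of complex I and also serves fatty acid synthesis in the matrix, had 46.9 and 50.8 FPKM in Mb1Cre and 43.5 and 48.5 FPKM in libraries labelled Mct1f/fMb1Cre on day 0. On day 3 it had 131 and 116 FPKM and 118, 128 and 122 FPKM, and the log2 fold changes were 1.32 and 1.39 (adjusted p = 1.43e-08 and 3.86e-09, limma). *Ndufa6* (chromosome 15, 82350139 to 82354291) encodes the subunit of this module to which an acyl carrier protein docks. It had 99.7 and 118 FPKM and 99.0 and 103 FPKM in the groups of day 0, and 98.8 and 92.8 FPKM and 78.3, 87.7 and 80.8 FPKM in those of day 3. All naive libraries lay above all activated ones, the nearest by 98.97 to 98.79 FPKM. The change was -0.18 on the log2 scale in Mb1Cre (adjusted p = 0.0490, limma) and -0.29 in Mct1f/fMb1Cre cells (adjusted p = 0.00245, limma), short of the limit, and with median-of-ratios scaling the value in Mb1Cre cells was 0.03 (adjusted p = 0.760, limma). *Ndufa5*, *Ndufa7* and *Ndufa9* were called higher in both genotypes, at 0.96, 0.65 and 0.85 in Mb1Cre cells.

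In the proximal membrane arm 6 of 9 accessory subunits were called higher in Mb1Cre and 7 of 9 in Mct1f/fMb1Cre cells. *Ndufc1* and *Ndufc2*, small subunits with similar names but different sequences, changed most in Mb1Cre cells, by 1.36 and 1.21, beside 0.95 and 1.18 in Mct1f/fMb1Cre cells. *Ndufc2* had 54.6 and 51.5 FPKM in Mb1Cre libraries of day 0 and 123 and 124 FPKM on day 3. *Ndufs5* and *Ndufa8*, which face the intermembrane space, rose by 1.05 and 0.82 in Mb1Cre cells, and *Ndufa10* by 0.81. *Ndufa13*, also known as GRIM-19, was at 0.45 and 0.48 in the 2 genotypes and passed the adjusted p only. *Ndufa3*, the subunit transcript with the highest level on both days, had the smallest change of this group, at 0.27 in Mb1Cre and 0.08 in Mct1f/fMb1Cre cells. In Mct1f/fMb1Cre cells that value did not pass the test (adjusted p = 0.249, limma).

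In the distal membrane arm 5 of 10 accessory subunits were called higher in Mb1Cre and 6 of 10 in Mct1f/fMb1Cre cells. *Ndufb6* changed most. It had 20.0 and 13.5 FPKM in Mb1Cre libraries of day 0, the widest relative gap between those replicates among the tested members, 16.9 and 18.4 FPKM in those labelled Mct1f/fMb1Cre, and 43.5 and 40.6 FPKM, then 38.3, 42.8 and 39.1 FPKM, on day 3. No value of day 0 reached any of day 3, and the log2 fold changes were 1.30 and 1.14 (adjusted p = 2.79e-06 and 3.89e-06, limma). *Ndufb9*, *Ndufb8*, *Ndufb2* and *Ndufb5* were called higher in both genotypes, at 0.92, 0.81, 0.81 and 0.70 in Mb1Cre cells. *Ndufb10*, *Ndufb11*, *Ndufb3* and *Ndufb4* stayed within 0.25 of 0 on the log2 scale in both genotypes. *Ndufb11*, on the X chromosome, had 112 and 111 FPKM in the Mb1Cre libraries of day 0 and 127 and 119 FPKM in those of day 3, whereas the Mct1f/fMb1Cre groups had 114 and 117 FPKM and then 113, 112 and 113 FPKM. *Ndufb10* had 71.7 and 78.8 FPKM in Mb1Cre libraries of day 0 and 73.6 and 72.5 FPKM on day 3, and 70.3 and 69.4 FPKM and 78.2, 88.3 and 82.8 FPKM in the Mct1f/fMb1Cre groups. The days overlapped in Mb1Cre cells (log2 fold change -0.04, adjusted p = 0.541, limma) and not in Mct1f/fMb1Cre cells (0.25, adjusted p = 0.00156, limma).

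Of the 8 assembly factors, 2 were called higher in both genotypes, *Ndufaf2* and *Ndufaf6*, a share near that of all genes called higher (24.8% in Mb1Cre and 23.4% in Mct1f/fMb1Cre cells). *Ndufaf2*, the paralog that holds the place of *Ndufa12* during assembly, had 6.85 and 6.75 FPKM in Mb1Cre libraries and 9.92 and 6.59 FPKM in those labelled Mct1f/fMb1Cre on day 0. It had 20.8 and 20.8 FPKM and 20.6, 21.5 and 18.5 FPKM on day 3. The activated libraries were all above the naive ones. The first naive library labelled Mct1f/fMb1Cre, which also had the highest myeloid sum, was higher than the other 3. The log2 fold change of 1.48 in Mb1Cre cells (standard error 0.133, adjusted p = 9.34e-07, limma) came next after that of *Ndufa12*. *Ndufaf6*, which acts early, rose by 0.77 and 0.68. *Ndufaf3* and *Ndufaf4* bind each other and build the Q module. *Ndufaf3* (chromosome 9, 108565587 to 108567436) had 7.25 and 7.94 FPKM and 6.69 and 8.6 FPKM on day 0, and 6.68 and 5.11 FPKM and 5.91, 5.72 and 6.20 FPKM on day 3. The 2 days came within 0.01 FPKM of each other without overlap, and the log2 fold changes of -0.33 and -0.31 passed the adjusted p (0.0255 and 0.0215, limma) but not the limit. With median-of-ratios scaling no member, *Ndufaf3* and *Ndufa6* included, passed the adjusted p as lower in either genotype. *Ndufaf4* did not pass the test in either genotype, at 0.11 and -0.08 (adjusted p = 0.120 and 0.221, limma).

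The other assembly factors lay between. *Ndufaf1*, which works in the membrane arm with Ecsit and Acad9, had 0.42 and 0.35 on the log2 scale in the 2 genotypes. *Ndufaf5*, which hydroxylates an arginine of *Ndufs7*, had 0.48 and 0.23, and *Ndufaf7*, a methyltransferase, had 0.26 and 0.32. All 6 of these values passed the adjusted p and none the limit. *Ndufaf8*, the partner of *Ndufaf5*, was at 0.10 in Mb1Cre (adjusted p = 0.131, limma) and at 0.40 in Mct1f/fMb1Cre cells (adjusted p = 3.13e-05, limma).

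*Ndufa4*, for its part, had 126 and 124 FPKM in Mb1Cre and 119.9 and 124 FPKM in libraries labelled Mct1f/fMb1Cre on day 0, and 179 and 172 FPKM and 183, 186 and 179 FPKM on day 3. Its rise was of like size in both genotypes, 0.48 and 0.58, with the limit of 0.5 between the values.

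Values of *Ndufb4c* were uncertain. Its annotated transcript of 390 bases (GENCODE vM21, within the RefSeq gene on chromosome 15, 73809449 to 73809933, GRCm38.p6) was identical in all 390 bases to the coding sequence of *Ndufb4*, bases 95 to 484 of a transcript of 971 bases. The RefSeq gene *Ndufb4* lies on chromosome 16, 37647602 to 37654368. The first 120 of these shared bases are shown because no read that lies within the stretch can be assigned to either gene:
*Ndufb4* and Ndufb4c: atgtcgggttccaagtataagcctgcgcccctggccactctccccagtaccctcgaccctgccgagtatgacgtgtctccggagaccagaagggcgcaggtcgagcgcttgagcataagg
*Ndufb4c* had 9.55 and 9.87 FPKM in Mb1Cre libraries and 1.68 and 11.8 FPKM in those labelled Mct1f/fMb1Cre on day 0, and 12.1 and 9.38 FPKM and 13.2, 9.65 and 12.4 FPKM on day 3. The single value of 1.68 FPKM stands far below the rest. In the same 4 groups *Ndufb4* had 70.1 and 75.0, then 78.7 and 69.7, then 84.5 and 83.1, then 82.4, 89.9 and 84.3 FPKM, and the library with the lowest *Ndufb4c* had the highest *Ndufb4* of day 0. *Ndufb4c* was called in Mct1f/fMb1Cre cells (log2 fold change 1.11, standard error 0.466, adjusted p = 0.0439, limma), although the other naive library of that label, at 11.84 FPKM, lay within the range of day 3. Of the other members, *Ndufa12*, *Ndufb9*, *Ndufs3* and *Ndufs5* shared over 10% of the 100-base windows of their longest coding transcript with a transcript annotated to another gene, from 17.02 to 38.3%.

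**Figure D3:**
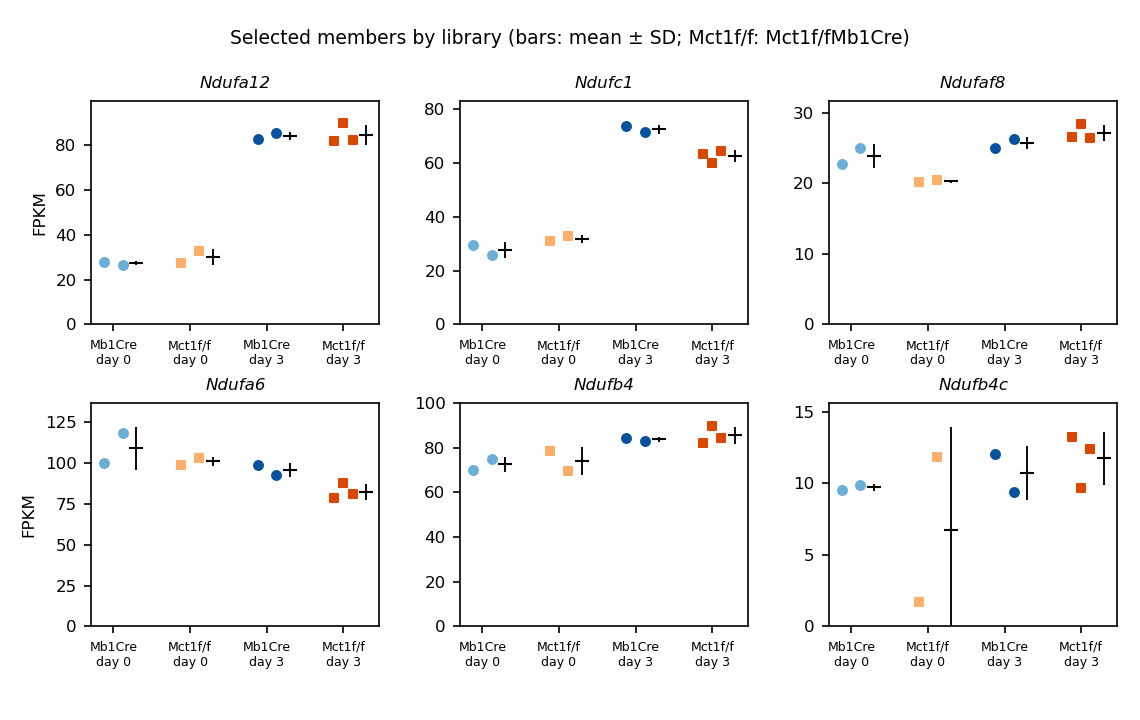
FPKM by library for *Ndufa12*, *Ndufc1*, *Ndufaf8*, *Ndufa6*, *Ndufb4* and *Ndufb4c*, each point a library and the bars beside them the mean ± SD of the group, which for *Ndufb4c* in naive Mct1f/fMb1Cre cells runs below the axis. *Ndufa12* separates the days, *Ndufc1* and *Ndufaf8* also order the genotypes differently on the 2 days, and 1 library of *Ndufb4c* stands near 0.

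The changes on activation were also described in other genes of the respiratory chain, to be read beside the shares of all genes called higher (24.8% in Mb1Cre and 23.4% in Mct1f/fMb1Cre cells) and lower (33 and 33.2%). Among 14 assembly factors of complex I that do not carry the symbol, 5 were called higher and 1 lower in Mb1Cre cells, with a median log2 fold change of 0.16, and 3 were higher and 2 lower in Mct1f/fMb1Cre cells. The largest rises in Mb1Cre cells were those of *Nubpl*, which delivers iron-sulfur clusters (1.00), *Tmem70* (0.74) and *Aifm1* (0.70). *Dmac2*, which acts on the distal membrane arm, was lower, at -1.80 on the log2 scale in Mb1Cre and -1.51 in Mct1f/fMb1Cre cells. *Ecsit* was at 0.40 and *Acad9* at 0.10 in Mb1Cre cells. Among 8 tested genes of the other enzymes that feed ubiquinone, 2 were called higher and 2 lower in each genotype. In Mb1Cre cells *Sdhb* and *Sdhd* of complex II rose by 0.61 and 0.65, whereas *Sqor*, which oxidizes sulfide, and *Gpd2*, the glycerol phosphate dehydrogenase of the inner membrane, were at -2.05 and -1.02. Complex III had 6 of 9 subunits called higher in Mb1Cre cells, complex IV 10 of 10 and the ATP synthase 12 of 15, with 0 lower. Their medians were 0.54, 0.72 and 0.90, beside 0.57 for the Nduf genes. Of 12 tested transcription factors and coactivators linked to respiratory genes, nuclear or mitochondrial, 2 were higher and 2 lower in Mb1Cre cells. *Tfb1m* (1.17), whose protein acts inside mitochondria and not on nuclear genes, and *Myc* (0.65) were higher. *Esrra*, the estrogen-related receptor ERRα, was lower (-1.18), as was *Gabpb2* (-0.77). *Nrf1* was at -0.20 and *Yy1* at 0.06.

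**Figure D4:**
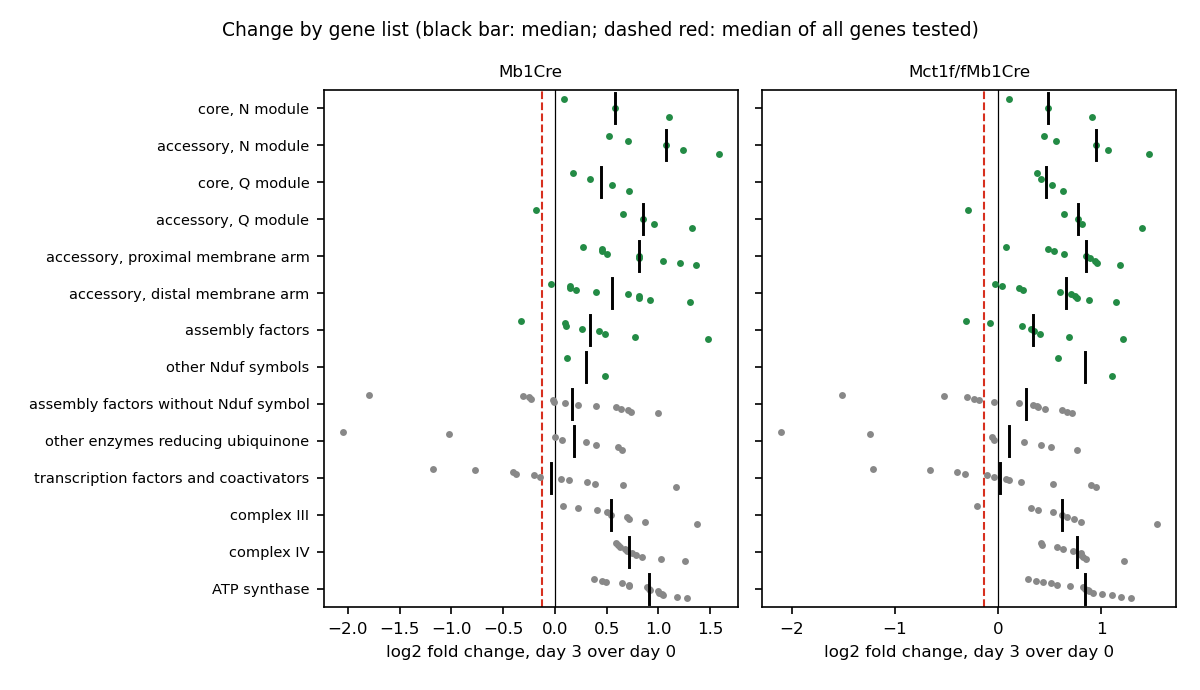
Change from day 0 to day 3 by gene list in Mb1Cre (left) and Mct1f/fMb1Cre cells (right), with 1 point per tested gene, Nduf genes in green, other lists in grey, a black bar at each list's median and a dashed line at the median of all genes tested. The accessory subunits of the N module have the highest median of the subunit lists in Mb1Cre cells, and the assembly factors and transcription factors spread to both sides of 0.

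The genotypes were compared on day 3, when *Slc16a1* differed, to see whether complex I transcripts differed between *Mct1*-deficient and control cells. None of the 46 genes was called, where 2.42% of all genes were called in either direction, and 8 had an unadjusted p below 0.05, where 29% of all genes had. The median log2 fold change of the members was -0.04, beside -0.01 over all genes. With the adjusted p alone, 0 were higher (6.03% of all genes) and 1 was lower (9.21% of all genes). In 3 members all 3 *Mct1*-deficient libraries lay above both control libraries (21% of all genes), and in 9 they lay below both (26.1% of all genes). For 45 of the 46 genes, all but *Ndufb4c*, the 95% confidence interval of the difference lay inside 0.5 on the log2 scale on either side of 0, and the median interval reached 0.15 from its estimate on either side. Between these bounds, differences smaller than the interval were not detectable with 2 and 3 libraries. In 38 of the 46 genes the first Mb1Cre library of day 3 was above the second. The median difference of the members was 0.01 without that first library and -0.10 without the second. Over all genes the median was -0.01 in both of these fits.

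**Figure D5:**
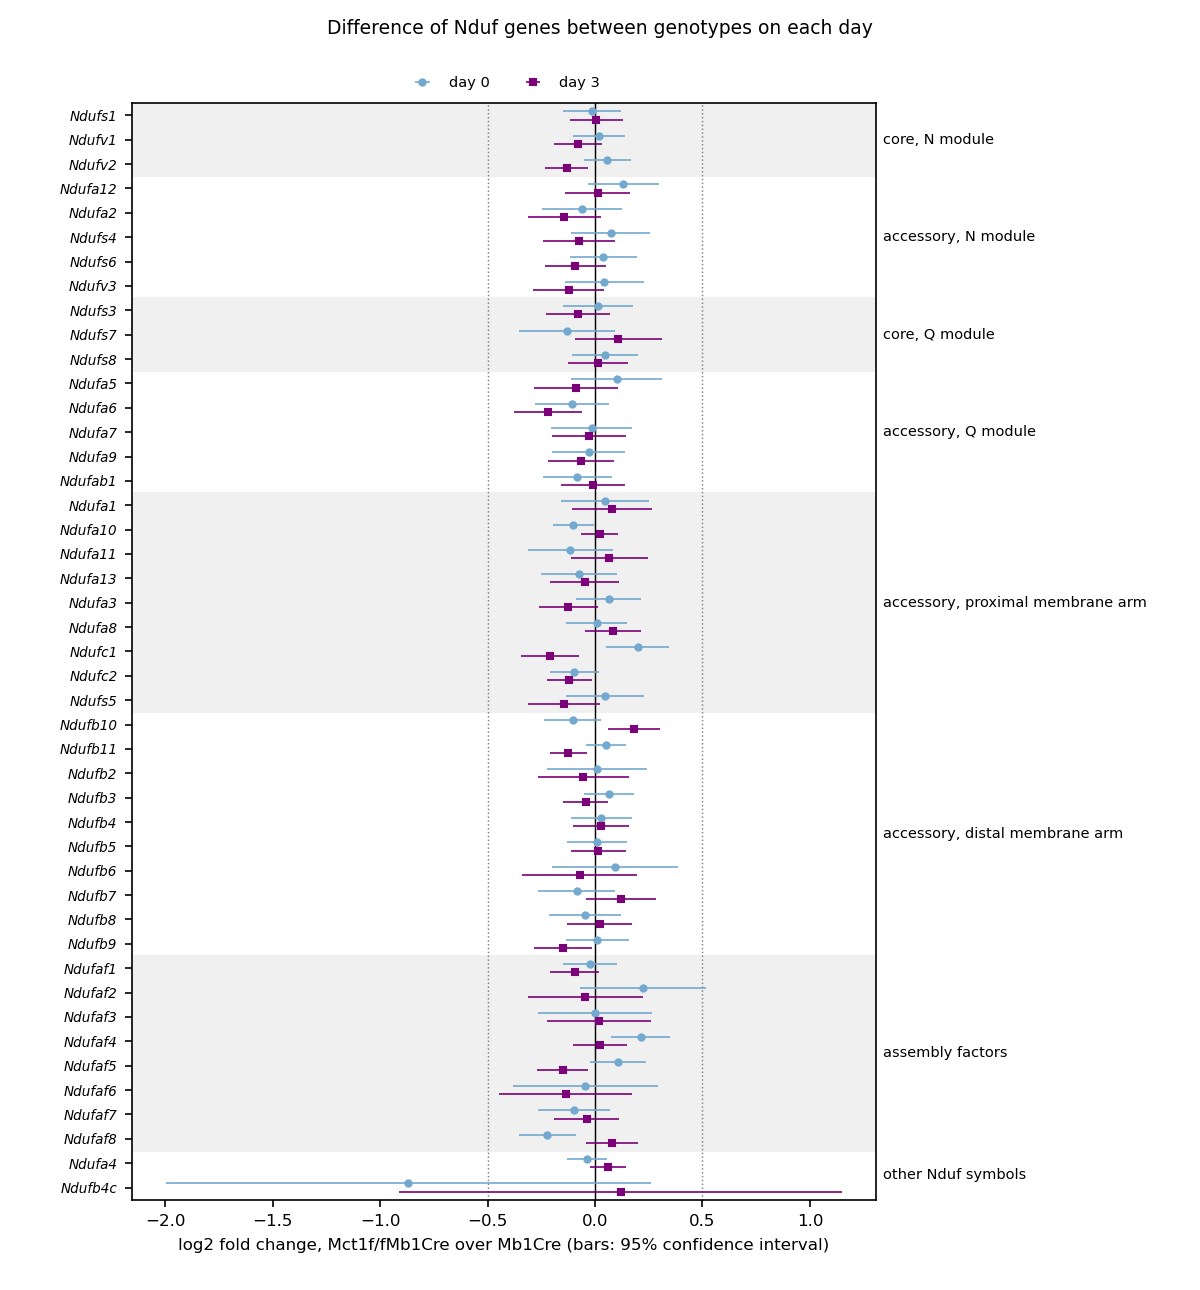
Difference of 45 of the tested Nduf genes between Mct1f/fMb1Cre and Mb1Cre cells, as the log2 fold change with its 95% confidence interval, on day 0 (blue circles) and day 3 (purple squares), with dotted lines at the limit of 0.5. The points of day 3 lie between -0.22 and 0.18 and only the intervals of *Ndufb4c* run far past the limit.

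The member below the adjusted p on day 3 was *Ndufc1* (chromosome 3, 51405479 to 51408955), a small subunit of the proximal membrane arm. It had 73.5 and 71.2 FPKM in Mb1Cre and 63.3, 59.9 and 64.3 FPKM in *Mct1*-deficient libraries on day 3, without overlap. The log2 fold change was -0.21 (95% confidence interval -0.34 to -0.08, adjusted p = 0.0416, limma), below the limit on the fold. The adjusted p ran from 0.0133 to 0.227 over 19 alternatives and was 0.05 or more in 10 of them, among them each of the 5 that left out a library of day 3. *Ndufa6*, which did not pass the adjusted p, had a slightly larger difference, with 98.8 and 92.8 FPKM in Mb1Cre and 78.3, 87.7 and 80.8 FPKM in *Mct1*-deficient libraries (log2 fold change -0.22, unadjusted p = 0.0113, adjusted p = 0.0651, limma). In the other direction *Ndufb10* had the largest value, 0.18 (adjusted p = 0.0508, limma), with 73.6 and 72.5 against 78.2, 88.3 and 82.8 FPKM. The core subunits differed by -0.13 (*Ndufv2*) to 0.11 (*Ndufs7*), with none past the adjusted p.

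On day 0 none of the 46 genes was called (0.277% of all genes), and none passed the adjusted p alone (0.416% of all genes), while 4 had an unadjusted p below 0.05, where 11.7% of all genes had. Apart from *Ndufb4c*, whose value was -0.87 (standard error 0.510), the largest difference was that of *Ndufaf2* (0.22, 95% confidence interval -0.07 to 0.52, adjusted p = 0.557, limma). In both genes the first library labelled Mct1f/fMb1Cre stood apart, at 1.68 and 9.92 FPKM. That library also had the highest myeloid sum and the only *Ddx3y* value of day 0 above 1 FPKM. The interval lay inside 0.5 on either side of 0 for 44 of the 46 genes. The 4 genes with an unadjusted p below 0.05 were *Ndufaf8* (-0.22) and *Ndufa10* (-0.10), lower in the libraries labelled Mct1f/fMb1Cre, and *Ndufc1* (0.20) and *Ndufaf4* (0.21), higher there. The median difference of the members was 0.008, beside -0.002 over all genes. In 36 of the 46 genes the first library labelled Mct1f/fMb1Cre was below the second. The median was 0.033 without that first library and -0.053 without the second. Without the second library labelled Mct1f/fMb1Cre on day 0, *Ndufb4c* was called (-0.87 became -1.998), with the library of 1.68 FPKM then the only one of its group and assumed to vary like the other groups.

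Whether activation acted differently in the genotypes was asked with an interaction term of genotype with day. None of the 46 genes was called (3.23% of all genes), and 2 passed the adjusted p alone (9.42% of all genes), *Ndufc1* and *Ndufaf8*. On day 0 *Ndufc1* had 29.6 and 25.6 FPKM in Mb1Cre and 30.8 and 32.8 FPKM in libraries labelled Mct1f/fMb1Cre, so the order of the genotypes on day 0 was the reverse of that on day 3, without overlap on either day. The rise in Mct1f/fMb1Cre cells was smaller than that in Mb1Cre cells by 0.41 on the log2 scale (interaction -0.41, 95% confidence interval -0.61 to -0.21, adjusted p = 0.0200, limma). *Ndufaf8* (chromosome 11, 120098934 to 120100424) had 22.7 and 25.04 FPKM in Mb1Cre and 20.1 and 20.4 FPKM in libraries labelled Mct1f/fMb1Cre on day 0, and 25.03 and 26.3 against 26.6, 28.4 and 26.4 FPKM on day 3. The genotypes did not overlap on either day, with Mb1Cre higher on day 0 and lower on day 3. Its rise was larger in Mct1f/fMb1Cre cells by 0.30 (95% confidence interval 0.12 to 0.48, adjusted p = 0.0436, limma). Both values rest on the day 0 genotypes, which the targeted gene does not separate. The median interaction of the members was -0.05, beside -0.02 over all genes. It ran from -0.13 without the first library labelled Mct1f/fMb1Cre of day 0 to 0.03 without the first Mb1Cre library of day 3, was -0.10 without the second Mb1Cre library of day 3 and 0.01 without the second library labelled Mct1f/fMb1Cre of day 0. All 5 accessory subunits of the N module had values below 0, from -0.17 to -0.08, and none of them passed the test. Values below 0 were also found in 28 of the 46 members and in 5790 of the 10823 genes tested.

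The windows around the transcription starts of the genes were searched for letters that respiratory transcription factors are known to bind. RefSeq windows of GRCm38.p6, from 250 bases before the start to 50 bases from it on, matched 40 of the 47 members. Both strands were searched, and no match of 1 motif overlapped a match of another. The letters GCATGCGC, from the motif of NRF1 (nuclear respiratory factor), were in the windows of 5 of 40 members, compared with 6.36% of 8790 tested genes with a window and 3.05% of all 27025 genes with one. The letters AAGATGGCG, from that of YY1, were in 6 of 40, compared with 3.94 and 1.64%. CCGGAAG, bound by GABP and other ETS factors, was in 6 of 40, compared with 22.1 and 9.93%. CACGTG, the E-box that MYC can bind, was in 2 of 40 (12.1 and 8.09%), and TCAAGGTCA, bound by ERRα, was in 0 of 40 (0.319 and 0.466%). In 22 of the 40 windows none of these letters was found. No list was tested against these shares.

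The NRF1 letters stood before the start in *Ndufa8*, *Ndufa11*, *Ndufa6* and *Ndufaf4*. The 120 bases before the start of each are shown, 5′ to 3′ on the strand of the gene and with the letters in capitals, because these 4 genes carried the same letters and differed in their change on activation. The capitals form a run of 10 bases where matches on both strands overlap.
*Ndufa8* (chr2:36049339-36049458, minus strand): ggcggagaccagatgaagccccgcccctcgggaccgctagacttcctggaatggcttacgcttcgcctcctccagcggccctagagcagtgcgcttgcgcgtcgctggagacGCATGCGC
*Ndufa11* (chr17:56717642-56717761, plus strand): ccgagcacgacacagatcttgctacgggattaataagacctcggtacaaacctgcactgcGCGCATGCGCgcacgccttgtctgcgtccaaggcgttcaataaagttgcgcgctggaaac
*Ndufa6* (chr15:82354292-82354411, minus strand): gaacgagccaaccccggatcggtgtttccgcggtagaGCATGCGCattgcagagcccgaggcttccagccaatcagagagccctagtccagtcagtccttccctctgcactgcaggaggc
*Ndufaf4* (chr4:24897963-24898082, plus strand): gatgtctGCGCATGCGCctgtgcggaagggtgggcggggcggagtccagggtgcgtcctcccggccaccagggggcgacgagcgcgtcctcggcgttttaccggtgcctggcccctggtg
In Mb1Cre cells *Ndufa8* had a log2 fold change of 0.82 on activation, *Ndufa11* of 0.46, *Ndufa6* of -0.18 and *Ndufaf4* of 0.11, and *Ndufaf5*, with the letters after its start, of 0.48.

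The YY1 letters stood after the start in all 6 members that had them, between bases 11 and 44 of the transcript, and on the strand of the gene. Because they hold an ATG, its position was compared with the annotation, and in 5 of the 6 genes it was an annotated start codon, *Ndufaf8* being the exception. Short stretches around the letters, in capitals, show how alike these sites were.
*Ndufc1* (chr3:51408917-51408941, minus strand): tgcggaacAAGATGGCGccgtccgt
*Ndufs6* (chr13:73328433-73328457, minus strand): tcaccggcAAGATGGCGgcggtgct
*Ndufa9* (chr6:126849099-126849123, minus strand): tgtgggagAAGATGGCGgccgccgt
*Ndufs4* (chr13:114388045-114388067, minus strand): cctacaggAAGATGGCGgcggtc
*Ndufs7* (chr10:80249465-80249489, plus strand): ccgaggccAAGATGGCGgcgctggc
*Ndufaf8* (chr11:120098936-120098960, plus strand): cagggcccAAGATGGCGgcgccctc
In this order their log2 fold changes in Mb1Cre cells were 1.36, 1.08, 0.85, 0.71, 0.17 and 0.10, so that members with these letters were among those that changed most and among those that did not pass the test.

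The 47 genes lie on 17 chromosomes, with *Ndufa1* and *Ndufb11* on the X chromosome. Across 45 tested genes without *Ndufb4c*, the Spearman rho of the log2 fold change in Mb1Cre cells was -0.01 with the length of the longest coding transcript and 0.06 with its number of exons. Across the 46 tested genes it was -0.12 with the level on day 0, which enters the fold change. These are descriptions across genes that share the same libraries.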

How the data were processed

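RNA was sequenced from 9 libraries of splenic B cells, and groups and replicate numbers come from the labels. The authors deposited FPKM, rounded to 2 decimals, for 17596 genes. The submitters' processing notes name Bowtie2 and the build GRCm38 (mm10), and the paper states that the sequencing institute assembled the data. FPKM hold no read counts, so depth and counting error are unknown, and precision rests on 2 or 3 libraries per group. All 9 value columns were used.

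From the deposited FPKM, log2(FPKM + 1) was computed without further scaling. A gene was kept at a mean of 1 FPKM or more, which left 10823, and these were fitted with limma 3.58.1 in R 4.3.3, using 4 group means, trended empirical Bayes variances and the Benjamini-Hochberg adjustment over all genes. The comparisons were day 3 against day 0 in each genotype, the genotypes on each day, and their interaction. Confidence intervals are at the 95% level. The fit was tested on simulated data. Levels, motifs and figures were computed in Python 3.11.15 with pandas, scipy and matplotlib 3.10.9. Positions come from RefSeq (GRCm38.p6), exons and transcripts from GENCODE vM21, and promoter windows from RefSeq.

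The members and gene lists were chosen with earlier results of these data known. Members named were the core subunits, the Nduf assembly factors, *Ndufa4*, *Ndufa4l2*, the 5 largest and 5 smallest changes on activation in Mb1Cre, the highest and lowest levels, and those past an adjusted p in a comparison of the genotypes or the interaction. Other list genes were mostly the largest changes of each list, and some with smaller changes, such as *Ecsit*, *Acad9* and *Yy1*, were named besides. Some items that the rule names are counted but not reported here. Further members were named to describe each module, with their values already seen. The alternatives were other pseudocounts (0.1 and 5), filters (none, or a mean of at least 5 FPKM) and scalings, only the groups compared, no trend, log2 limits of 1 or none, the replicate number as a block, and each library left out in turn.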

Additional observations from a re-analysis of the deposited data

Results flagged for a closer look

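The effect of activation differed between the genotypes in 2 members by the test of the interaction. For *Ndufc1* the interaction was -0.41 on the log2 scale (adjusted p = 0.0200, limma), with a rise in Mct1f/fMb1Cre cells smaller than that in Mb1Cre cells. Its adjusted p ran from 0.00618 to 0.0831 over 18 alternatives and was 0.05 or more in 4, which were no filter on low values and leaving out either Mb1Cre library of day 3 or the second library labelled Mct1f/fMb1Cre of day 0. For *Ndufaf8* the interaction was 0.30 (adjusted p = 0.0436, limma), with the larger rise in Mct1f/fMb1Cre cells. Its adjusted p ran from 0.0252 to 0.152 and was 0.05 or more in 12 of 18 alternatives, among them 8 of the 9 that left out a library. Neither reached the limit of 0.5 on the fold in the values as reported.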

How the results depend on the processing

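Fits with another pseudocount, filter or set of groups, or without the trend, left the counts of called Nduf genes within 1.5 times those reported. With a log2 limit of 1, the genes called higher on activation numbered 10 of 46 in Mb1Cre cells (12.2% of all genes). In Mct1f/fMb1Cre cells they numbered 7 of 46 (11.1% of all genes), nearer to the share of all genes than with the limit of 0.5. Without a limit, 2 were lower in each genotype (*Ndufa6* and *Ndufaf3*), 1 differed between the genotypes on day 3 and 2 had an interaction. Scaling to a common total gave 1 lower in Mb1Cre cells (*Ndufaf3*, -0.50). Leaving out 1 library gave 23 to 30 genes higher in Mb1Cre and 23 to 31 in Mct1f/fMb1Cre cells, 0 to 1 on day 0 (*Ndufb4c*) and 0 to 2 in the interaction. A group left with 1 library was assumed to vary like the others. Those in the interaction were *Ndufc1* (-0.51) without the first Mb1Cre library of day 0, and *Ndufaf2* (-0.53) and *Ndufb4c* (2.12) without the second library labelled Mct1f/fMb1Cre of day 0. On day 0 the difference of *Slc16a1* ran from -0.13 to 0.024 when 1 library was left out, at 0.024 without the first Mb1Cre library and 0.000552 without the first labelled Mct1f/fMb1Cre. Same-numbered libraries did not deviate together (correlations of deviations from the group means from -0.12 to 0.09), so the numbers were not taken to pair them. The replicate block gave 26 and 27 genes higher, 0 lower and 0 between genotypes or in the interaction, with an adjusted p (limma) of 0.0728 for *Ndufc1* on day 3 and of 0.0536 for the *Ndufaf8* interaction. A crossed block for the Mb1Cre libraries, chosen after seeing the data, gave 26 higher and 0 lower. Scaling moved the median of all genes on activation to -0.31 and -0.30 (common total) or 0.07 and 0.06 (median of ratios) in Mb1Cre and Mct1f/fMb1Cre cells, and that of the Nduf genes to 0.37 and 0.44 or 0.77 and 0.83. With the common total, values in Mb1Cre cells changed sign for *Ndufaf4* (-0.066), *Ndufaf8* (-0.093), *Ndufs1* (-0.10) and *Ndufs7* (-0.029), and that of *Ndufs1* in Mct1f/fMb1Cre cells was -0.063. With median-of-ratios scaling they did so for *Ndufa6* (0.030) and *Ndufb10* (0.17) in Mb1Cre cells and *Ndufaf4* (0.11) in Mct1f/fMb1Cre cells, which was 0.18 with quantile normalization. *Ndufb10* ran from -0.11 to 0.027 in Mb1Cre cells when 1 library was left out, at 0.027 without the second of day 0. Apart from the scaling and the limits, whose construction shifts all genes or the threshold, the cause was not tested. The unknown read depth limits what can be said of low members such as *Ndufa4l2*.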
